A study of Rattus norvegicus with 24 samples.

Results

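Cells make the building blocks of DNA and RNA with a small set of nucleotide synthesis enzymes, and 9 of these enzymes were picked by gene symbol: Cad, Umps, Rrm1, Dut, Tyms, Shmt1, Tk1, Dck and Impdh2. Of the 9, 8 were measured here, among 14201 genes that have a probe set of their own on the array. Where a gene had several probe sets, the brightest by its mean over the 24 arrays was read. No probe set used here names Impdh2, an enzyme of guanine nucleotide synthesis, and it was not analysed here.

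Pyrimidine rings are built de novo by Cad and finished by Umps, which yields uridine monophosphate. Ribonucleotide reductase, whose large subunit is Rrm1, turns ribonucleotides into deoxyribonucleotides, Dut clears dUTP into dUMP, and Tyms methylates dUMP to thymidylate with a folate one-carbon unit of the kind that Shmt1 produces. Tk1 and Dck salvage thymidine and deoxycytidine instead. Several of these genes, Tk1, Tyms and Rrm1 among them, are known for high expression in cells that replicate DNA, and the rat spleen holds both dividing lymphoid cells and blood-forming cells.

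The study set cyclophosphamide, a prodrug whose metabolites crosslink DNA, against vehicle, and asked by its title whether wood in the cage changes gene expression after the drug. All 12 animals were male, wild-type Sprague-Dawley rats, 46 to 49 days old, dosed by mouth for 5 days. There were 4 groups of 3 rats: cyclophosphamide (40 mg/kg/day) with wood, cyclophosphamide without wood, vehicle with wood and vehicle without wood. The wood is called a stick in the sample labels and a block in the design text. Spleen and liver of each rat were hybridised to 1 array each from 5 µg of total RNA, so that 24 arrays hold 30980 probe sets each. Levels are deposited intensities, changes are differences of log2 intensity, and a gene passed where limma's p, adjusted by Benjamini-Hochberg over all genes tested, was under 0.05. The number of rats limits the precision, and p-values set a difference against the spread between arrays of different rats within groups. For spleen against liver, both arrays of a rat entered as independent, except where the animal was a block.

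Median intensity was 113 to 121 on the spleen arrays and 89.7 to 101 on the liver arrays, and all 8 enzymes had a value on every array. Blank cells numbered 1021 to 1920 per spleen array and 4924 to 6060 per liver array. In spleen, the arrays of all 3 vehicle rats without wood and of 1 cyclophosphamide rat without wood (animal 2005) stood apart with 1778 to 1920 blanks, against 1021 to 1183 on the other 8. The liver array of animal 2003, a cyclophosphamide rat without wood, had the most blanks (6060) and the lowest mean correlation with the other liver arrays (0.847). The tissue labels matched their markers: the 7 hepatocyte genes summed to 257 to 855 in spleen and to 50340.4 to 61102 in liver, with Tat blank on all spleen arrays.

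In spleen, 6 of the 8 enzymes fell after cyclophosphamide, 1 rose and 1 did not pass. Dut, the dUTPase, had the largest fall, 2.09-fold, followed by Rrm1 of ribonucleotide reductase at 1.93-fold. Shmt1, Tk1, Cad and Dck fell 1.33- to 1.54-fold, and Umps, the enzyme that completes uridine monophosphate, rose 1.67-fold. In the same test 55% of 13614 genes passed, 26.9% as higher and 28.1% as lower, so most genes of this organ passed as well. The median change of the 8 enzymes was −0.54 on the log2 scale and that of all genes −0.02.

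**Figure D1:**
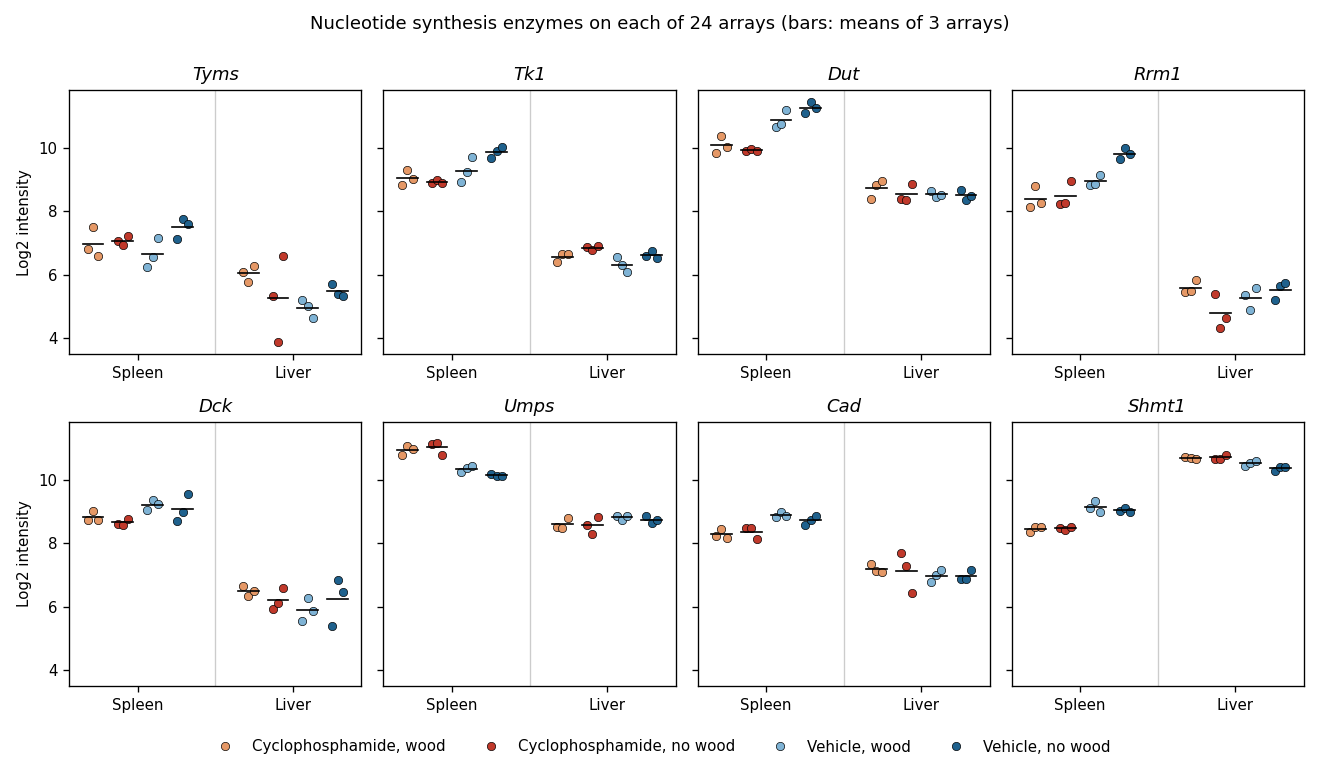
Log2 intensity of the 8 enzymes on each array, spleen at the left and liver at the right of each panel, with each point a rat and each bar the mean of 3 rats of a group. Dut, Cad and Shmt1 lie lower and Umps higher in all 6 cyclophosphamide spleens than in all 6 vehicle spleens.

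The enzymes of pyrimidine ring synthesis went opposite ways. Cad, whose protein carries out the opening steps of the pathway, had intensities of 297, 352 and 289 in spleens of cyclophosphamide rats with wood and 355, 359.9 and 285 without wood, against 452, 505 and 470.0 in vehicle rats with wood and 385, 427 and 469 without wood. The highest cyclophosphamide value, 359.9, lay below the lowest vehicle value, 385, and Cad fell by 0.48 ± 0.09 on the log2 scale (SE, limma adjusted p = 0.00101). Umps had 1777, 2146 and 2035 with wood and 2253, 2319.5 and 1752 without wood under cyclophosphamide, against 1230.0, 1319.9 and 1373 with wood and 1155, 1114 and 1125 without wood under vehicle. All 6 cyclophosphamide spleens were above all 6 vehicle spleens, and Umps rose by 0.74 ± 0.08 (limma adjusted p = 4.54e-05). Within the vehicle spleens without wood, Umps varied little, with an SD of 0.03 over 3 rats.

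Dut and Rrm1 had the largest falls among the 8 enzymes. Dut had intensities of 917, 1317 and 1055 in cyclophosphamide rats with wood and 958, 1004 and 964 without wood, against 1608, 1749 and 2325 in vehicle rats with wood and 2204, 2789 and 2477 without wood. Its groups did not overlap, with a fall of 1.07 ± 0.12 on the log2 scale (limma adjusted p = 4.04e-05). Rrm1 had 284, 442 and 307 in cyclophosphamide rats with wood and 301, 305 and 496 without wood, against 454, 470.4 and 563 in vehicle rats with wood and 801, 1033 and 895 without wood. It fell by 0.95 ± 0.16 (limma adjusted p = 0.000651), and 1 cyclophosphamide spleen, animal 2005, read above 2 of the vehicle spleens with wood.

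Tyms, thymidylate synthase, was the enzyme that did not pass. Its spleen intensities were 114, 183 and 96.9 under cyclophosphamide with wood and 133, 123 and 149 without wood, against 76.6, 94.5 and 144 under vehicle with wood and 139, 218 and 195 without wood. The difference was −0.05 ± 0.20 on the log2 scale, with a 95% interval of −0.51 to 0.40 (limma adjusted p = 0.834), so a fall of the size seen for Cad lies inside its interval. The lowest and the highest group means were both in vehicle rats: log2 intensity averaged 6.98 with wood and 7.07 without wood under cyclophosphamide, against 6.66 with wood and 7.50 without wood under vehicle (SD 0.48, 0.14, 0.46 and 0.34 in that order, n = 3 each). Shmt1, which supplies folate one-carbon units in the cytosol, had tight groups: 329, 365 and 368 in cyclophosphamide rats with wood and 356, 343 and 366 without wood, against 554, 643 and 511 in vehicle rats with wood and 522, 553 and 507 without wood. No cyclophosphamide spleen reached a vehicle spleen, and Shmt1 fell by 0.63 ± 0.07 (limma adjusted p = 3.74e-05).

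Both salvage kinases fell, with overlap between the groups. Tk1, thymidine kinase of the cytosol, had 460.4, 637 and 518 in spleens of cyclophosphamide rats with wood and 474, 507 and 475 without wood, against 482, 604 and 838 in vehicle rats with wood and 826, 953 and 1037 without wood. It fell by 0.59 ± 0.14 on the log2 scale (limma adjusted p = 0.00447), and the overlap came from vehicle rats with wood. Dck, deoxycytidine kinase, had 424, 521 and 425 with wood and 393, 382 and 441 without wood under cyclophosphamide, against 529, 661 and 609 with wood and 421, 509 and 748 without wood under vehicle. Its fall of 0.41 ± 0.14 was the smallest that passed (limma adjusted p = 0.0267). It passed in 6 of 12 refits that each left out 1 rat, and with a term for the arrays rich in blanks it was −0.35 (adjusted p = 0.121).

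Groups without overlap between 6 cyclophosphamide and 6 vehicle spleens were found for 4 of the 8 enzymes, Dut, Umps, Cad and Shmt1. Of all 12837 genes with a value on every spleen array, 31.2% had groups without overlap. With the blank-rich arrays modelled, Dut (−1.07), Rrm1 (−0.71), Tk1 (−0.60), Cad (−0.59), Shmt1 (−0.60) and Umps (0.62) passed.

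**Figure D2:**
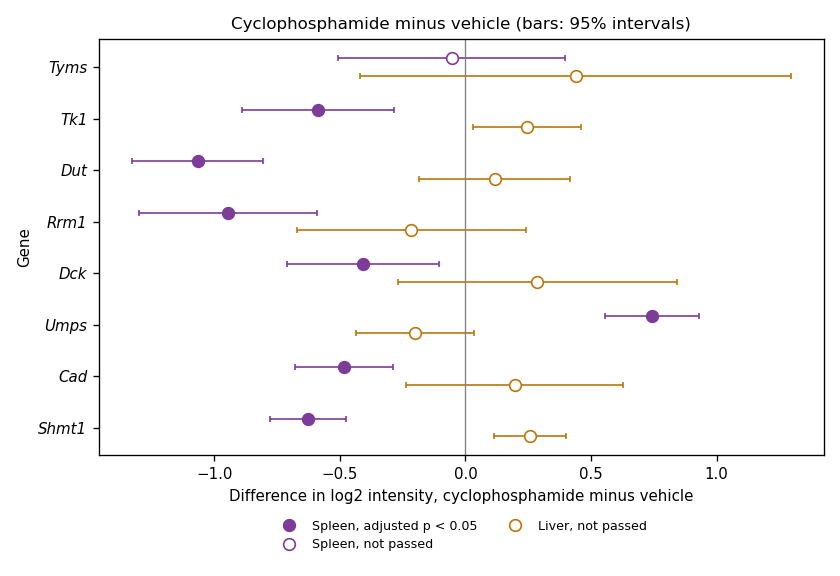
Difference in log2 intensity, cyclophosphamide minus vehicle, for each enzyme in spleen (upper point of a pair) and liver (lower point), with 95% intervals and filled points where the adjusted p was under 0.05. In spleen 6 filled points lie below 0 and that of Umps above it, and in liver no point is filled.

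Other probe sets of the same genes were fitted among all 29020 probe sets with spleen values. The second probe set of Dut fell too (−1.17, limma adjusted p = 0.000903). The second probe set of Cad was at −0.09 (adjusted p = 0.618), and the others of Tk1 were at −0.39 (adjusted p = 0.344) and 0.10 (adjusted p = 0.614). Those of Dck were at −0.48 (adjusted p = 0.0711) and 0.59 (adjusted p = 0.0820). Tyms, Rrm1 and Umps have 1 probe set each, as has Shmt1. With the mean of all probe sets per gene, Tk1 (−0.29, adjusted p = 0.132) and Dck (−0.10, adjusted p = 0.662) no longer passed in spleen, and Cad was at −0.29 (adjusted p = 0.0433). Tk1 without wood was then at −0.59 (adjusted p = 0.0483).

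The promoters of the enzymes whose drug effect passed in spleen are shown, Umps excepted. RefSeq's table (build GRCr8) gives 250 bases before and 50 after the start of 7 of the 8 genes, all but Umps, in 8 entries, and the entry of Tyms is not printed because its level did not pass. Capitals mark the letters of 4 motifs on either strand: an E2F motif (TTTCCCGC, TTTCGCGC, TTTGCCGC or TTTGGCGC), the CCAAT box (CCAAT), the GC box (GGGCGG) and the E box (CACGTG). Each sequence is written 5′ to 3′ on the gene's strand, at chr6:31034987-31035286 (−) for Cad, chr1:166235654-166235953 (+) for Rrm1, chr3:132952180-132952479 (+) and chr3:132952649-132952948 (+) for the first and second start of Dut, chr10:45990292-45990591 (−) for Shmt1, chr10:103544728-103545027 (−) for Tk1 and chr14:19610277-19610576 (−) for Dck.
Cad: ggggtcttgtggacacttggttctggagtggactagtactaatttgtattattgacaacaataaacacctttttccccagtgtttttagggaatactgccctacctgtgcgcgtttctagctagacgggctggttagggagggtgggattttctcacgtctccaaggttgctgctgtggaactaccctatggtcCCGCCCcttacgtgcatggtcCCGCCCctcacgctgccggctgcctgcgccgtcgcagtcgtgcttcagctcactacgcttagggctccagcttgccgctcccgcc
Rrm1: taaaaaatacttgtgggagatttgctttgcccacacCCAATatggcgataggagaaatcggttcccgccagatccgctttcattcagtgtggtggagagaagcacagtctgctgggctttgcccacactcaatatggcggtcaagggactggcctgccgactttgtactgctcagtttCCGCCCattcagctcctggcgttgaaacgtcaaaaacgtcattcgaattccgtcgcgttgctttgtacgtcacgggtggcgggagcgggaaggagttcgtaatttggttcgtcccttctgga
Dut, first start: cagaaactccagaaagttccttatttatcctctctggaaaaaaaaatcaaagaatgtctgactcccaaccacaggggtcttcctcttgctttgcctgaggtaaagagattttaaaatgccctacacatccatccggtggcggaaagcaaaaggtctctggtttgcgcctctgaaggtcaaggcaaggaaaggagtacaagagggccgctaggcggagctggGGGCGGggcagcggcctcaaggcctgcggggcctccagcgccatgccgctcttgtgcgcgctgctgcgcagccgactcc
Dut, second start: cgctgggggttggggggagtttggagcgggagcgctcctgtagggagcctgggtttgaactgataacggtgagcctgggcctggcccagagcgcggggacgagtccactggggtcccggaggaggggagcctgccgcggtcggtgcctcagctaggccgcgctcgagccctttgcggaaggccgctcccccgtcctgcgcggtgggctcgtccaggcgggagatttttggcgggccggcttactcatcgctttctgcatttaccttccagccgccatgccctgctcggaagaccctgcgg
Shmt1: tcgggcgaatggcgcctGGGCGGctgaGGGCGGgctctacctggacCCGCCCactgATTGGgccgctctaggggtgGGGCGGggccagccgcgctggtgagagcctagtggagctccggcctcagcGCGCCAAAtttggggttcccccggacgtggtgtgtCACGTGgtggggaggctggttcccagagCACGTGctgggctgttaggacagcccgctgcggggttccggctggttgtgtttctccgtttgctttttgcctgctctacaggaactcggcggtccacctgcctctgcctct
Tk1: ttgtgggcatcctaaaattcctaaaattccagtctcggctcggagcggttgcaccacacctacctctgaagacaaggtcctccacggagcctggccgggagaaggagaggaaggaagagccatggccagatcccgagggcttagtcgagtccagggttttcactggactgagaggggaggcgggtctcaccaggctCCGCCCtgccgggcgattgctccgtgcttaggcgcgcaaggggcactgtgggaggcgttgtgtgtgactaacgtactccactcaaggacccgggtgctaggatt
Dck: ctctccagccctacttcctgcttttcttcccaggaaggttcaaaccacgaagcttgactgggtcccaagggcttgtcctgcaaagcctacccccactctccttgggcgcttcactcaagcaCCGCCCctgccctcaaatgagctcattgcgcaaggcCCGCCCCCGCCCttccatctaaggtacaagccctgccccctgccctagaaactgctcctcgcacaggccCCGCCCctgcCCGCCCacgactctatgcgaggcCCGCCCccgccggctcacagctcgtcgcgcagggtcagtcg

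The E2F letters stood in 2 of the 8 promoters, in Tyms 37 bases before the start on the gene's own strand and in Shmt1 124 bases before it on the other strand. Of all 33469 promoters in the table, 2.14% hold them, and of the 13226 promoters of genes on the array, 3.50%. The GC box was present in 6 of the 8, all but Tyms and the second start of Dut, against 33.1% of all promoters and 55.7% of the 13226 promoters of genes on the array. Dck had 6 GC boxes, 5 before the start and 1 after it. The CCAAT box was found in Rrm1 and Shmt1, against 37.5% of all promoters and 36.8% of those of array genes. The E box was found in Shmt1 only, at 89 and 61 bases before the start, against 6.42% of all promoters and 8.61% of those of array genes. No motif overlapped another. A match is a match of letters and not a binding site, and a window without a match says nothing of the factor.

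By housing, 3 enzymes fell and 1 rose in spleens of rats with wood, cyclophosphamide against vehicle, where 38.4% of all genes passed, 19.9% as higher and 18.5% as lower. Without wood, 5 fell and 1 rose, where 45.1% passed, 22.7% as higher and 22.4% as lower. Dut, Cad and Shmt1 fell and Umps rose in both housings, and Tk1 and Rrm1 passed without wood and did not pass with wood. Cad without wood passed in 8 of 12 refits that each left out 1 rat (adjusted p = 0.0506 to 0.122 without animal 1003, 1005, 2005 or 3005) and in 7 of 11 other settings. It did not pass after quantile normalisation (limma adjusted p = 0.0648), after centring (0.0890), with only the groups compared (0.0964) or with the mean of all probe sets (−0.18, 0.366), which also ended its call with wood (−0.40, 0.0623). The change of Dut came to −0.79 with wood and −1.35 without wood, that of Rrm1 to −0.55 with wood and −1.34 without wood, and that of Tk1 to −0.23 with wood and −0.94 without wood. For Umps it was 0.60 with wood and 0.89 without wood, for Cad −0.61 with wood and −0.36 without wood, and for Shmt1 −0.68 with wood and −0.57 without wood. The difference itself, drug effect with wood minus drug effect without wood, was 0.79 ± 0.32 for Rrm1, 0.72 ± 0.27 for Tk1 and 0.56 ± 0.23 for Dut, with limma adjusted p-values of 0.334, 0.308 and 0.353. No enzyme passed that limma test, in which 0.705% of all genes passed, and 3 had an unadjusted p under 0.05. The blank-rich arrays are the 3 vehicle spleens without wood and animal 2005. With a term for them, chosen after seeing the data, the change without wood was −0.87 for Rrm1 (adjusted p = 0.0282) and −0.58 for Cad, and the difference between the housings for Rrm1 was 0.32 (adjusted p = 0.818). On the 8 arrays poor in blanks, a setting chosen after seeing the data, the drug effect with wood was −0.55 for Rrm1 and −0.39 for Dck. These sizes were those of the main fit, and both passed there as lower (limma adjusted p = 0.0453 and 0.0379). The share of all genes passing in that fit is not reported here, so the added calls are not set against it.

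The rest of the pathway was read from 5 lists of synthesis, folate and salvage genes. Of 41 tested, 22 fell in spleen after cyclophosphamide, 3 rose and 16 did not pass. Of all 13614 genes in that test, 28.1% fell and 26.9% rose. In de novo purine synthesis, 8 of 10 fell, among them Atic (−0.75), Adsl (−0.68) and Prps2 (−0.58). Adss1, the muscle-type adenylosuccinate synthase, rose (0.64), and Pfas was at −0.18 and did not pass. In pyrimidine synthesis beyond Cad and Umps, 3 of 4 fell: Dhodh (−0.49), the mitochondrial step between them, Cmpk1 (−0.35) and Ctps1 (−0.32), with Ctps2 at −0.18 not passing. Among other enzymes of deoxynucleotides, 4 of 8 fell. These were Samhd1, which breaks down deoxynucleotide triphosphates (−1.46), the mitochondrial kinase Dguok (−0.81), Dctpp1 (−0.69) and Nme2 (−0.32), with Dctd at −0.39 and Nme1 at −0.22 not passing.

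Folate genes fell in 5 of 11 cases, with none higher. Mthfd2, a mitochondrial one-carbon enzyme, was at −1.70, the folate carrier Slc19a1 at −1.45, Mthfd1l at −0.99, Shmt2, the mitochondrial partner of Shmt1, at −0.80 and Mthfd1 at −0.26. Aldh1l2 (0.64) and Aldh1l1 (−0.46) did not pass. Among 8 salvage genes, the nucleoside carrier Slc29a1 (0.66) and Hprt1 (0.47), which recycles purine bases, rose. Uckl1 (−0.48) and Slc29a2 (−0.18) fell, while Uck2 (−0.35) and Uck1 (−0.11) did not pass. The salvage shares were near those of all genes, 26.9% as higher and 28.1% as lower. Of 15 breakdown genes, 7 rose and 3 fell. Xdh, xanthine dehydrogenase, was at 1.23 and Dpyd, the pyrimidine-degrading dehydrogenase, at 1.20, against −1.48 for Upb1, −1.16 for the nucleotidase Nt5c and −0.48 for Nt5c3a, while Upp1 (0.72) and Ampd2 (0.17) did not pass. The medians of the lists were −0.42 for purine, −0.34 for pyrimidine, −0.35 for deoxynucleotide, −0.26 for folate, −0.08 for salvage and 0.41 for breakdown genes, beside −0.02 for all genes.

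**Figure D3:**
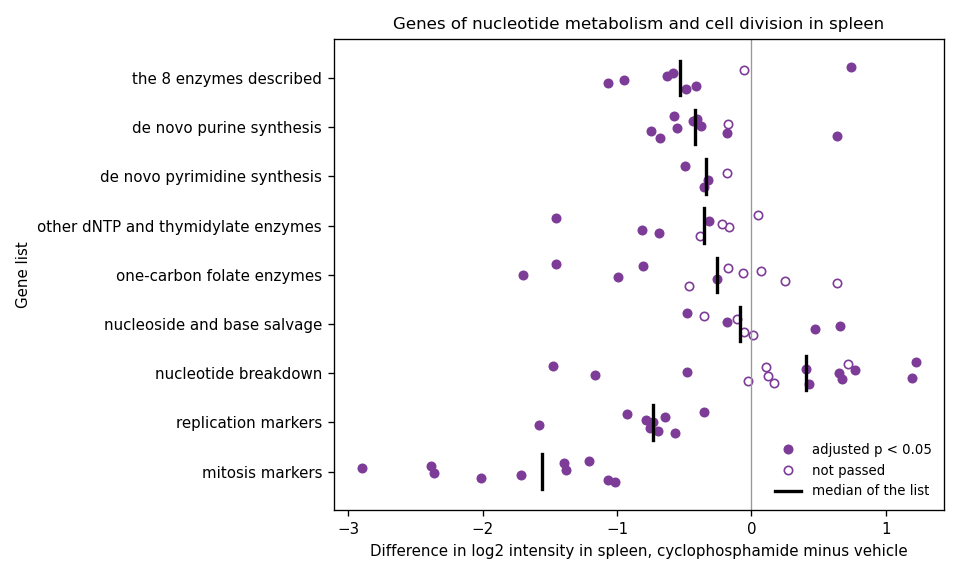
Difference in log2 intensity in spleen, cyclophosphamide minus vehicle, for each tested gene (points) of the listed pathways and of replication and mitosis markers, filled where the adjusted p was under 0.05, with the list median as a bar. The median is −0.54 for the 8 enzymes, 0.41 for breakdown genes and −1.56 for mitosis markers.

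Markers of dividing cells and of cell types moved in the same spleens, in the test that 26.9% of all genes passed as higher and 28.1% as lower. All 10 mitosis markers fell, led by Cenpf (−2.90), Mki67 (−2.39) and Ccnb2 (−2.36), and their summed intensity was 1380 to 2916 in cyclophosphamide spleens and 4078 to 8268 in vehicle spleens. The 9 replication markers with a probe set fell too, led by Mcm3 (−1.58), Mcm7 (−0.93) and Mcm5 (−0.79), with sums of 4760 to 6799 in cyclophosphamide spleens and 7145 to 10847 in vehicle spleens. The median change was −1.56 for mitosis and −0.74 for replication markers.

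Markers of red-cell precursors fell in 7 of 7 tested, led by Ahsp (−6.71), Alas2 (−6.65) and Hemgn (−5.89), with sums of 1032 to 1353 in cyclophosphamide spleens and 12168 to 25393 in vehicle spleens, and Epb42 was blank in every cyclophosphamide spleen. B cell markers fell in 6 of 6, led by Cd79b (−5.20), Ms4a1 (−5.10) and Fcer2 (−4.25), with sums of 1642 to 2726 in cyclophosphamide spleens and 15931 to 21066 in vehicle spleens. In the other direction, 7 of 8 macrophage markers rose, led by Spic (1.39), Mrc1 (1.20) and Cd163 (1.18), with sums of 27410.4 to 30949.6 in cyclophosphamide spleens and 13606 to 17022 in vehicle spleens. Stroma markers rose in 6 of 7, led by Mmp2 (2.09), Postn (1.85) and Pdgfra (1.40), with sums of 10645 to 13123 in cyclophosphamide spleens and 4277 to 5721 in vehicle spleens.

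T cell markers were mixed, with Cd4 higher (1.16) and Cd5 (−0.53) and Cd3g (−0.40) lower of 6, and sums of 3525 to 5798 in cyclophosphamide spleens and 4335 to 6078 in vehicle spleens. Markers of exocrine pancreas, an organ that lies beside the spleen, summed to 439.6 to 13467 in cyclophosphamide spleens and 224 to 864 in vehicle spleens. Of 5 tested, Cela1 was higher (2.60), and the top sum was in 1 cyclophosphamide rat without wood. Hepatocyte markers summed to 257 to 635 in cyclophosphamide spleens and 295 to 855 in vehicle spleens, with Pck1 lower (−0.68) of 6. In bulk tissue, fewer cells of a type and less RNA per cell cannot be told apart, and the part of these markers in the changes of the 8 enzymes was not tested.

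Genes with the profiles most like each enzyme over the 12 spleen arrays were taken from 12660 genes by the root mean square difference of centred log2 values. Shmt1 had the closest companion of the 8, Apex1, an endonuclease of base excision repair (0.0492), then Eef1b2 of translation elongation (0.0727). Umps was closest to the tetraspanin Cd151 (0.0894) and the lysosomal protein Glmp (0.0956), and Cad to Alg12 of protein glycosylation (0.0864) and to Bid (0.0910). Dut was closest to the ubiquitin-conjugating enzyme Ube2s (0.113) and Pabpc4 (0.136), and Rrm1 to the licensing factor Cdt1 (0.135) and the centriole protein Stil (0.148). Tk1 was closest to Cdc45 of the replication fork (0.147) and the tubulin Tubb4b (0.154), Dck to Casp2 (0.136) and Ssr4 (0.149), and Tyms to Tcf19 (0.214) and Lmna (0.217). Among the 8 themselves, Cad and Shmt1 were nearest (0.162) and Rrm1 and Umps farthest apart (0.972). The profiles share the 12 arrays and the drug groups.

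Wood alone was first read in cyclophosphamide rats, wood against no wood. In their spleens no enzyme passed in limma, with differences between −0.09 for Tyms and 0.17 for Dck, 0 unadjusted p-values under 0.05, and 0% of all genes passing. In vehicle rats 1 of the 8 enzymes, Rrm1, was lower with wood, where 15.1% of all genes passed, 7.48% as higher and 7.64% as lower. The vehicle spleens with wood had Rrm1 at 454, 470.4 and 563 and those without wood at 801, 1033 and 895, without overlap, a difference of −0.87 ± 0.22 on the log2 scale (limma adjusted p = 0.0312).

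Tyms (−0.83, adjusted p = 0.0756), Tk1 (−0.58, adjusted p = 0.0686) and Dut (−0.41, adjusted p = 0.117) did not pass in the same limma fit, each with an unadjusted p under 0.05. Dck, Umps, Cad and Shmt1 were at 0.14, 0.21, 0.16 and 0.11. The 3 vehicle arrays without wood are all in the blank-rich set, and the wood arrays are not. With a term for that set, which also holds animal 2005, Rrm1 was −0.16 (adjusted p = 0.945) and no enzyme passed. Without 1 of the rats 1003, 1005, 3001, 3003 or 3005, the adjusted p of Rrm1 was 0.0509 to 0.0936. Within vehicle spleens, wood and the arrays poor in blanks cannot be told apart.

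Some markers passed for wood in the same vehicle spleens, in the test that 15.1% of all genes passed. Mitosis sums were 4078 to 6471 with wood and 5607 to 8268 without wood, and none of the 10 genes passed in limma, with 1 unadjusted p under 0.05. Replication sums were 7145 to 8224 with wood and 8629.99 to 10847 without wood, with 2 of 9 genes lower, Mcm4 (−0.56) and Mcm6 (−0.62). Red-cell precursor sums were 12168 to 20629 with wood and 22417 to 25393 without wood, with 2 of 7 lower, Car2 (−0.93) and Tfrc (−0.73). Cd4 (0.83) and Csf1r (0.30) were higher with wood, while the sums of their lists overlapped. T cell sums were 5428 to 6078 with wood and 4335 to 5460 without wood. Macrophage sums were 14955 to 16808 with wood and 13606 to 17022 without wood. The part of these markers in the difference of Rrm1 was not tested. Averaged over drug and vehicle, no enzyme passed for wood in limma, where 12.1% of all genes passed, 6.05% in each direction, and 2 had an unadjusted p under 0.05. Of the 41 genes of the 5 pathway lists, 0 passed for wood in vehicle spleens, and Upb1 (−1.56), Nt5c3a (−0.66) and Ampd2 (−0.65) were lower and Cda (1.49) higher among 15 breakdown genes.

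**Figure D4:**
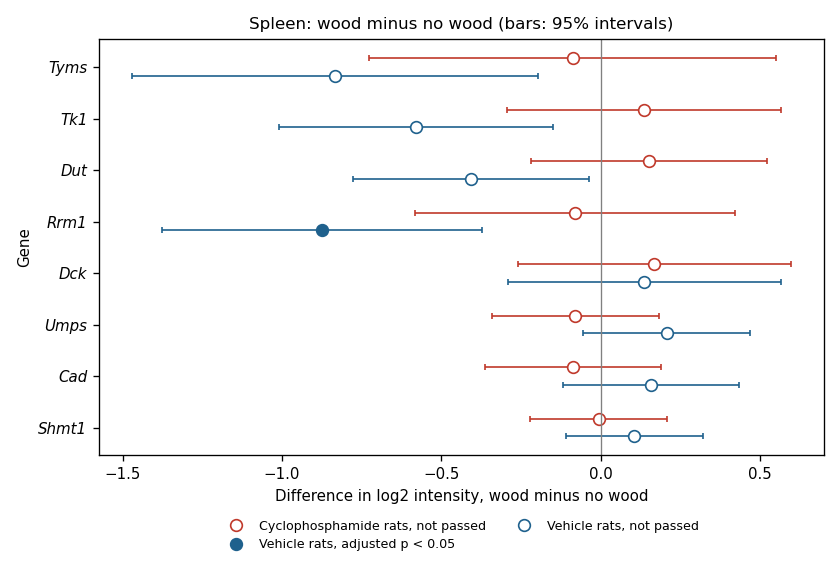
Difference in log2 intensity in spleen, wood minus no wood, for cyclophosphamide rats (upper point of a pair) and vehicle rats (lower point), with 95% intervals. The intervals of all 8 enzymes include 0 in cyclophosphamide rats, and Rrm1 in vehicle rats is the 1 filled point, at −0.87.

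In liver no enzyme passed in limma after cyclophosphamide, in a test that 0.812% of 12683 genes passed, 0.166% as higher and 0.647% as lower, and 2 had an unadjusted p under 0.05. The median change of the 8 was 0.22 and that of all genes −0.02. Shmt1 came closest and ran opposite to spleen. Its intensities were 1672, 1664 and 1631 in livers of cyclophosphamide rats with wood and 1635, 1626 and 1784 without wood, against 1393, 1495 and 1557 in vehicle rats with wood and 1243, 1350.5 and 1359.6 without wood. The 6 cyclophosphamide livers were all above the 6 vehicle livers, as in 1.06% of 10799 genes with full data (2.89% had no overlap in either direction). The difference was 0.26 ± 0.06 on the log2 scale (limma adjusted p = 0.112, unadjusted p = 0.00250). It passed on the scale log2(intensity + 16) (adjusted p = 0.0333), among genes at or above the median level (0.0458) and with a trended, robust prior (0.0336).

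The other 7 enzymes had liver groups that overlapped. Tk1 had 85.3, 101 and 101 in cyclophosphamide livers with wood and 116, 110.1 and 119.8 without wood, against 93.9, 78.9 and 68.0 in vehicle livers with wood and 96.8, 108 and 91.6 without wood, a difference of 0.24 ± 0.10 (adjusted p = 0.295). Umps was at −0.20 ± 0.11, Rrm1 at −0.22 ± 0.20, Dut at 0.12 ± 0.13, Cad at 0.20 ± 0.19 and Dck at 0.29 ± 0.25, with adjusted p-values of 0.426 to 0.735 in the limma fit. Tyms was the most scattered, with 68.0, 54.9 and 77.9 in cyclophosphamide livers with wood and 40.5, 14.7 and 97.4 without wood, against 36.6, 32.7 and 25.1 in vehicle livers with wood and 52.7, 42.5 and 40.3 without wood. Its difference was 0.44 ± 0.38 (adjusted p = 0.644), and its lowest value, 14.7, as well as the lowest of Rrm1, 20.0, came from animal 2003.

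Umps, the enzyme that rose in spleen, had liver intensities of 368, 361 and 443 in cyclophosphamide rats with wood and 382, 311 and 455 without wood, against 465, 431 and 464 in vehicle rats with wood and 467, 398 and 426 without wood. Its lowest liver was again animal 2003, and the groups overlapped. Dut had 333, 461 and 501 in cyclophosphamide livers with wood and 338, 328 and 471 without wood, against 404, 350.1 and 363 in vehicle livers with wood and 407, 328 and 361 without wood. The lowest values of both groups were alike, and the 3 highest were all from cyclophosphamide livers. Rrm1 had 43.7, 45.4 and 57.0 in cyclophosphamide livers with wood and 42.4, 20.0 and 25.0 without wood, against 41.4, 29.8 and 48.0 in vehicle livers with wood and 37.1, 50.1 and 53.2 without wood. Within the cyclophosphamide livers, Rrm1 with wood minus without wood was 0.81 ± 0.29 on the log2 scale. It did not pass (limma adjusted p = 0.586), in a test that 0% of all genes passed, and the closest values were 43.7 and 42.4. Cad had 164, 140.1 and 138 in cyclophosphamide livers with wood and 207, 157 and 86.8 without wood, against 109, 129 and 143 in vehicle livers with wood and 118, 117 and 142 without wood, and both its highest and its lowest value came from cyclophosphamide livers without wood.

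The widest 95% intervals in liver were −0.42 to 1.30 for Tyms, −0.27 to 0.84 for Dck and −0.67 to 0.24 for Rrm1. Those of Dut (−0.18 to 0.42), Umps (−0.44 to 0.03) and Shmt1 (0.12 to 0.40) were narrower. Within each housing limma made 0 calls among the enzymes too, where 0.0473% of genes passed with wood and 0.15% without wood (0.0552% as higher and 0.0946% as lower), with 0 unadjusted p-values under 0.05 with wood and 2 without wood. No enzyme passed for wood in liver, where 0% of all genes passed, and Tk1 had the 1 unadjusted p under 0.05 (−0.29, unadjusted p = 0.0132, adjusted p = 0.654). The difference between the housings in the drug effect also had 0 calls at the adjusted p, and Rrm1 was at 1.05 ± 0.41 (unadjusted p = 0.0282, adjusted p = 0.950).

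Of 38 tested genes in the 5 synthesis, folate and salvage lists, 1 passed in liver, Samhd1 (−1.46, limma adjusted p = 0.0341). Aldh1l1, the folate enzyme abundant in liver (0.51, adjusted p = 0.0634), and Mthfd1 (0.42, adjusted p = 0.102) did not pass. Of 14 breakdown genes 0 passed in limma. An unadjusted p under 0.05 was found for 4 of them, Cda (2.32), Upb1 (0.34), Nt5e (−0.24) and Nt5c (−0.62), and Ampd3 was at 0.66. Of 9 mitosis and 8 replication markers 0 passed either, with 3 and 0 unadjusted p-values under 0.05, and the mitosis sums were 401 to 723 in cyclophosphamide livers and 343 to 476 in vehicle livers. Macrophage sums were 2878 to 4301 in cyclophosphamide livers and 5198 to 6407 in vehicle livers, with C1qa, Adgre1, Csf1r and Clec4f lower, and of 6 erythroid markers Alas2 was lower (−3.28). The 7 hepatocyte markers summed to 50340.4 to 61102 in cyclophosphamide livers and 52899 to 58409 in vehicle livers, and 0 passed, with 0 unadjusted p-values under 0.05. The part of these markers in the liver values was not tested.

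Spleen was then set against liver in vehicle rats, with both organs from the same animals. Of the 8 enzymes 7 were higher in spleen and 1, Shmt1, was lower, in a test that 79.5% of 12474 genes passed, 59.2% as higher in spleen and 20.2% as lower. The median gene was itself 0.72 higher in spleen on the log2 scale (0.29 after quantile normalisation and 0.36 after centring each array), so values are read against that shift. Rrm1 was 3.98 ± 0.19 higher in spleen, Tk1 3.11 ± 0.12, Dck 3.09 ± 0.20, Dut 2.55 ± 0.13, Tyms 1.86 ± 0.32, Cad 1.84 ± 0.15 and Umps 1.46 ± 0.09. With the mean of all probe sets per gene, Dut was 0.51 and Tk1 1.91 higher in spleen, beside a median of 0.68 over all genes. These values set unlike probe sets against each other. The second probe set of Dut was blank on all 12 livers, and the others of Tk1 on 11 and 4. Spleen means thus included dimmer probe sets that liver means lacked in whole or in part. The place of Dut below the median gene cannot be read as a tissue difference. Shmt1 was −1.35 ± 0.06, with intensities of 507 to 643 in the 6 vehicle spleens and 1243 to 1557 in the 6 vehicle livers. Folate genes shared that side in 6 of 8 cases, among them Fpgs (−2.45), Aldh1l1 (−6.45) and Aldh1l2 (−6.55), while the 8 tested deoxynucleotide genes were all higher in spleen.

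The drug effect itself differed between the organs for 6 of the 8 enzymes, in a test that 33.1% of 12474 genes passed, 18.4% as higher in spleen and 14.7% as lower. Spleen minus liver, it was −1.18 ± 0.18 on the log2 scale for Dut, −0.88 ± 0.09 for Shmt1, −0.83 ± 0.17 for Tk1, −0.73 ± 0.27 for Rrm1 and −0.68 ± 0.22 for Cad, and 0.94 ± 0.13 for Umps. The limma adjusted p-values ran between 8.24e-07 for Shmt1 and 0.0425 for Rrm1. Dck was at −0.70 ± 0.29 (adjusted p = 0.0741) and Tyms at −0.49 ± 0.45 (adjusted p = 0.429), with 95% intervals of −1.31 to −0.09 and −1.43 to 0.45. The call on Rrm1 held in 3 of 12 refits that each left out 1 rat, that on Cad in 10, and those on Dut, Shmt1, Tk1 and Umps in all 12. Rrm1 also did not pass after quantile normalisation (limma adjusted p = 0.0659) or centring (0.0624). With the mean of all probe sets, Cad (0.0908) and Tk1 (0.936) did not pass.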

How the data were processed

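Total RNA of spleen and liver was hybridised to Affymetrix rat arrays, 1 array per organ and rat. The authors deposited 1 table of log10 intensity values, with 10.5% of cells blank. That the base is 10 was read from the values, whose central 98% spans 2143-fold as log10 and 10.1-fold as log2. Their summarisation and normalisation are not stated in the labels. Values were converted to log2, and 20792 of 30980 probe sets name 1 gene (436 several, 9752 none). For genes with several probe sets, the one with the greatest average of log2(intensity + 16), blanks taken as 0, was used. Tests needed at least 1 value per group.

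Group means were fitted with limma 3.58.1 in R 4.3.3, over 12 arrays per organ or over 24 for spleen against liver, with Benjamini-Hochberg adjustment over all genes tested. The code was tested on simulated data. Spleen and liver share an animal per the labels. Over 10530 genes, deviations of a rat's spleen and liver from their group means correlated at −0.06 to 0.17. In 11 of 12 rats this exceeded the mean correlation of its spleen with the livers of the other rats of its group. Deviations from a group mean cancel within the group, which pushes the correlation with the other rats to the opposite sign. The count therefore does not test the pairing. Alternatives changed the scaling, offset, filter, probe set, prior, array weights, animal block, a term for blank-rich arrays and the samples.

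The enzymes, the pathway lists and the marker lists were chosen with earlier results of these data known. Named genes are all enzymes, up to 4 passing and 2 other genes per pathway list and organ, up to 3 per marker list and organ, and the 2 nearest profiles per enzyme. Further genes behind small counts were named after their values were seen.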

Additional observations from a re-analysis of the deposited data

Results flagged for a closer look

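The change after cyclophosphamide differed between spleen and liver for 6 enzymes, by a test of the difference itself that 33.1% of 12474 genes passed. On the log2 scale, drug effect in spleen minus drug effect in liver, it was −1.18 for Dut, −0.88 for Shmt1, −0.83 for Tk1, −0.73 for Rrm1, −0.68 for Cad and 0.94 for Umps. The call on Rrm1 held in 3 of 12 refits that each left out 1 rat and that on Cad in 10. Rrm1 did not pass after quantile normalisation or centring, nor Cad with the mean of all probe sets. Tk1 turned to 0.0559 with the mean of all probe sets, a mean that in liver lacks the blank values of its other probe sets. The drug effect of Tk1 in spleen was then −0.29, and the cause of the turn was not tested. Shmt1 was lower in 6 of 6 cyclophosphamide spleens and higher in 6 of 6 cyclophosphamide livers than in every vehicle sample of the same organ, though its liver change did not pass. Among genes with full data, 15.1% were lower without overlap in spleen, and 1.06% were higher without overlap in liver. Groups of 3 rats are too small for a test of single outlying samples.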

How the results depend on the processing

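Dut, Rrm1, Cad and Shmt1 fell and Umps rose in spleen after cyclophosphamide under all 10 other settings and all 12 refits that each left out 1 rat. In those refits 5 to 6 enzymes were lower in spleen. The fit of the 8 spleen arrays poor in blanks and the blank term for the wood effects were chosen after seeing the data. On those 8 arrays the drug effect with wood gave 5 rather than 3 lower enzymes, with the share of all genes passing in that fit not reported here. With a trended, robust prior, 1 enzyme rather than 0 was lower with wood over both drug groups, Rrm1. The housing difference in the drug effect gave 0 to 1 higher enzymes when 1 rat was left out, the 1 being Rrm1 without animal 2005. In liver, 1 enzyme rather than 0, Shmt1, was higher with log2(intensity + 16), among genes at or above the median level and with the trended, robust prior. For spleen against liver in the drug effect, 3 rather than 5 enzymes were lower with the mean of all probe sets, where Tk1 turned to 0.0559 (limma adjusted p = 0.936), and 3 to 5 when 1 rat was left out, with 3 without animal 4001. In that mean the other probe sets of Tk1 were blank on 11 and 4 of 12 livers, so spleen and liver rest on unlike probe sets. In spleen, where these probe sets had 0 blanks, the change of Tk1 also went from −0.59 to −0.29. The cause of these changes was not tested. With the animal as a replicate block, the counts stayed at 5 lower and 1 higher for the drug effect, and at 7 higher and 1 lower in vehicle rats. That block was fitted for spleen against liver only, where it changed no enzyme's call. Precision is limited by 3 rats per group, and dim genes in liver by blanks.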
